A study of Rattus norvegicus with 54 samples.

Results

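The cytosolic ribosome is built from ribosomal RNA and a fixed set of ribosomal proteins, and the genes of these proteins were examined here in bulk RNA sequencing of the rat nucleus accumbens. The members were the protein-coding rows of the deposited table whose symbol is Rpl, Rps or Rplp followed by a number, with an optional a or x. This gave 76 genes of 46505 rows, 46 of the large and 30 of the small subunit. In all 74 of them had counts, and all 74 were tested in every comparison. Rps6 and Rps9 were listed at 0 in all 54 libraries.

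The tissue came from male and female Long Evans rats. PAE denotes prenatal ethanol, FCL dams on a free-choice liquid diet, AAE alcohol in adolescence and VEH water in adolescence. At postnatal day 90 (P90), adulthood, there were 6 PAE-AAE and 6 FCL-VEH libraries of males and 5 PAE-AAE and 8 FCL-VEH libraries of females. At P42, 24 h after the last adolescent exposure, there were 9 PAE-VEH and 9 FCL-VEH libraries of males and 4 PAE-VEH and 7 FCL-VEH libraries of females. The word control stands for FCL-VEH below. Prenatal and adolescent exposure come together in the P90 PAE-AAE groups, and age and the time since the last adolescent handling come together in the age comparisons, so that neither pair can be told apart. In 3 P42 libraries (male control 8, female control 5, male PAE-VEH 5), Xist and 4 Y-linked genes went against the labelled sex; these libraries stayed in their labelled groups.

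Libraries held 59.1 to 103.8 M counts each. Markers of medium spiny neurons, the main cell type of this tissue, were present in every group (12 of 12 genes). So were all 12 markers of the choroid plexus, a tissue within the brain ventricles, and all 8 of cortical excitatory neurons, with wide ranges between libraries.

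Ribosomal proteins are made in near-equal amounts, and their genes are among the most highly expressed in any cell. Their mRNAs are known for a tract of C and T residues that begins at the very first base, called the 5′ terminal oligopyrimidine tract, through which the mTOR pathway and Larp1 govern their translation. In neurons, protein synthesis in cell bodies and dendrites draws on these subunits, and phosphorylated Rps6 is widely used as a marker of neuronal activity.

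The RefSeq promoter table of the rat build GRCr8 held 62 starts for 61 of the 76 members. A C stood at the annotated first base in 53.2% of these starts, against 24.1% of all 33469 starts in the table. A C followed by C or T to a run of at least 5 bases was found in 24 of the 62, which is 38.7%, against 2.63% of all starts. Within the 30 bases around the start (15 on each side), a run of at least 7 C or T was present in 74.2% of the members' starts and in 17.9% of all. The sequences below are these 30 bases on the gene's own strand for the 3 stalk genes, for 6 leading genes of the age comparison, and for the 2 members listed at 0. Capitals mark the longest run of C or T, and the annotated first base is the 16th letter.
Rplp0: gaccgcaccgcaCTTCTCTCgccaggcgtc
Rplp1: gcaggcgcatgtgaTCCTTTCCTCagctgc
Rplp2: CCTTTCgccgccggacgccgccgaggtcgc
Rps24: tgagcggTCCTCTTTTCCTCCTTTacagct
Rpl26: CTCgtgtcaacttacagaaccggaagtcgc
Rpl5: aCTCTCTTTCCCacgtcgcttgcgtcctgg
Rpl34: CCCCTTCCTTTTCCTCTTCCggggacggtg
Rpl14: gggcgggCCCTCTCCCTTCTCgctgagcgc
Rpl23: actaaCTTCCTTTCTgactctttccggacg
Rps6: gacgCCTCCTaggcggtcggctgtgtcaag
Rps9: tccggcggccacgTTTCTCTTTgtcacggg

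In order of listing, these windows lie at chr12:46718376-46718405 (minus strand), chr8:71290858-71290887 (minus), chr1:205975906-205975935 (plus), chr16:96502-96531 (plus), chr10:54109677-54109706 (plus), chr14:1995211-1995240 (minus), chr2:221962269-221962298 (minus), chr8:129163605-129163634 (plus), chr10:83272170-83272199 (minus), chr5:106420526-106420555 (minus) and chr1:74430423-74430452 (minus). The longest run reached across the annotated start in Rplp0, Rplp1, Rps24, Rpl34, Rpl14 and Rps9. It ended before the start in Rplp2, Rpl5, Rpl23 and Rps6, and Rpl26 had no run longer than 3 bases. These are annotated starts, and starts used in this tissue were not measured. For Rplp2, Rps24, Rpl34 and Rps9 the whole window lies inside the listed span of the gene. On the gene's strand these gene rows begin at chr1:205975598, chr16:95429, chr2:221962309 and chr1:74430513. The row of Rpl5 begins at chr14:1995236, inside its window but before the 16th letter. The start shown for these genes is therefore not the outer end of the gene row.

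Over the whole 300 bases of the table (250 before and 50 after the start, either strand), CCGGAAG, a core recognised by ETS factors such as Gabpa, was found in 32.3% of the members' starts and in 8.74% of all. AAGATGGC, the core of the Yy1 motif, was in 8.06% against 3.17%. The E-box CACGTG, which Myc and Max bind, was in 8.06% against 6.42%, and TATAAA was in 9.68% against 14.2%. None of these motifs contains another, and a match is a description of these letters only.

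The members spread widely in level. By the authors' FPKM, counts scaled to depth and gene length, the median over the 54 libraries ran from 10.2 FPKM for Rpl22, a large subunit protein with a close paralog, to 588 FPKM for Rplp1, a protein of the acidic stalk that recruits elongation factors. The next highest medians were 490 FPKM for Rpl41, the smallest protein of the family, 447 for Rpl37a, 425 for Rps23, a protein of the decoding centre, and 388 FPKM for Rpl13a. The other low medians were 10.6 FPKM for Rpl35a, 21.99 for Rpl36a, 22.8 for Rps14 and 33.1 FPKM for Rpl3, which reaches towards the peptidyl transferase centre. A low FPKM need not be a low count, since listed gene lengths differ. They are 12209 bases for Rpl3, 7346 for Rps14 and 5564 for Rpl22, against a family median of 878.5. Of the family's counts Rpl3 held 3.31%, the largest share of any member, Rps14 1.45%, Rpl22 0.463% and Rpl35a 0.197%. The stalk genes differed among themselves, with 588 FPKM for Rplp1, 275 FPKM for Rplp0, which anchors the stalk, and 105.3 FPKM for Rplp2.

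**Figure D1:**
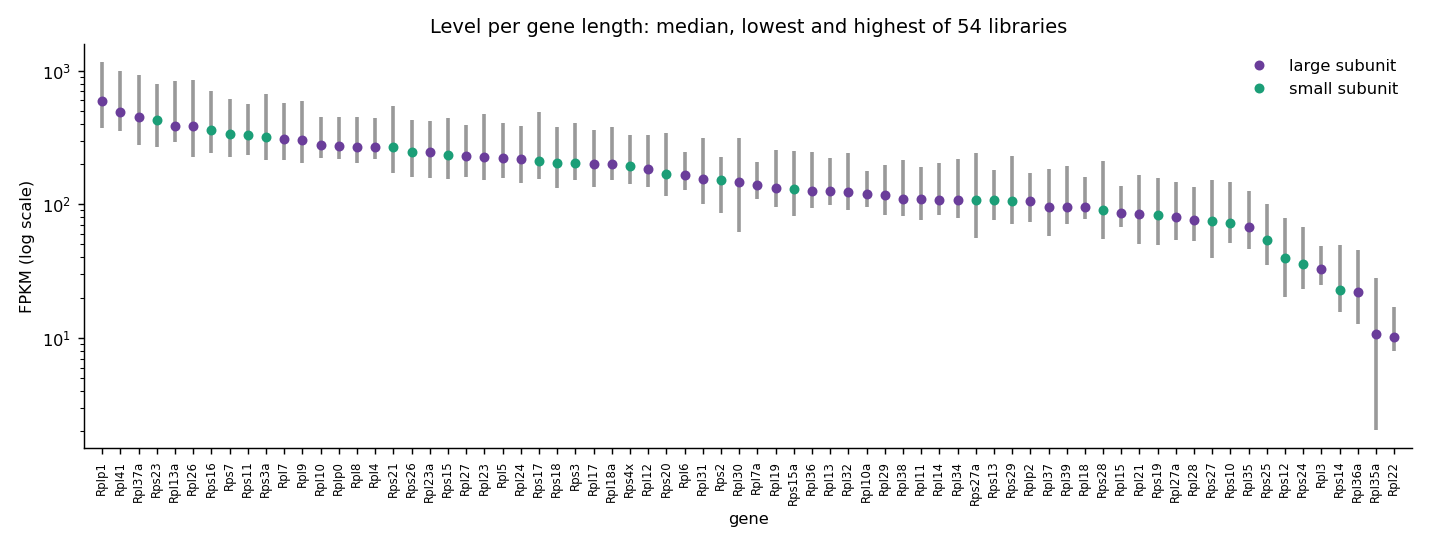
Authors' FPKM (vertical axis, log scale) of 72 of the 74 members with counts (horizontal axis, highest median first). Points are medians over the 54 libraries, coloured by subunit, and grey lines run from the lowest to the highest library; the medians fall from 588 FPKM for Rplp1 to 10.2 FPKM for Rpl22, and Rpl35a has the longest line.

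Ribosomal protein genes have many processed copies, which can share reads with the gene. Outside the rule, 1517 rows were matched to a cytosolic ribosomal protein, 1116 of them pseudogenes and 364 protein coding. They took 0.119% to 0.203% of a library's counts, while the members took 0.857% to 2.05%, with a median of 1.19%. In 8 members with counts, over 20% of the counts of gene and copies together lay on the copies: Rpl36a (50.04%), Rpl35a (43.3%), Rps2 (38.9%), Rpl21 (36.5%), Rpl7a (34.8%), Rpl36 (27.1%), Rps14 (26.6%) and Rpl30 (22.3%). Values of these 8 genes are uncertain in that respect.

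Rps6, the target of S6 kinase, lies at 106417680 to 106420540 on chromosome 5, wholly inside Dennd4c, and Rps9 at 74427084 to 74430513 on chromosome 1, wholly inside Pirb; both hosts run on the opposite strand. Per the labels the libraries carry no strand information, and how the authors' counter treated overlaps is not given in the sources used here. Rpl11, Rpl35 and Rpl9 were also covered over more than 90% of their length by another row, and had counts. Outside the rule, 27 rows were matched to the protein of Rps6 and 20 to that of Rps9. For both genes, 100% of the counts of gene and copies together lay on these copies, which follows from the value of 0 for the gene itself. Whether the overlap or the copies bear on the values of 0 was not tested.

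Most members moved together from library to library. Across the 54 libraries, with log2 CPM (counts scaled to library size) centred within each group, the correlation of a member with the mean of the other members had a median of 0.93, and 49 of 74 lay over 0.9. All members share the library and its depth, so this is a description. Rpl19, Rpl5, which carries 5S ribosomal RNA into the large subunit, and Rps7 followed the others most closely (0.97 each). Rpl35a (0.32), Rps27a, which is made as a fusion with ubiquitin (0.53), and Rpl29 (0.64) followed them least. Rpl35a and Rps27a also varied most within groups, with SDs of 0.86 and 0.51 on the log2 CPM scale, against a median SD of 0.19 over the members. The members lie on 19 chromosomes, and 29 of them hold 56 annotated small nucleolar RNA rows.

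As a share of all counts, the members took between 1.16% and 2.05% in P90 control males, with a median of 1.44%, against 0.857% to 1.31% and a median of 1.06% in P42 control males. In females the share ran from 1.03% to 1.70% in P90 controls (median 1.32%), against 1.05% to 1.32% in P42 controls (median 1.12%). P90 PAE-AAE males had a median of 1.20%, below P90 control males, and P90 PAE-AAE females one of 1.525%, above P90 control females. P42 PAE-VEH libraries had medians of 1.19% in males and 1.10% in females. The groups overlapped in each of these comparisons.

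**Figure D2:**
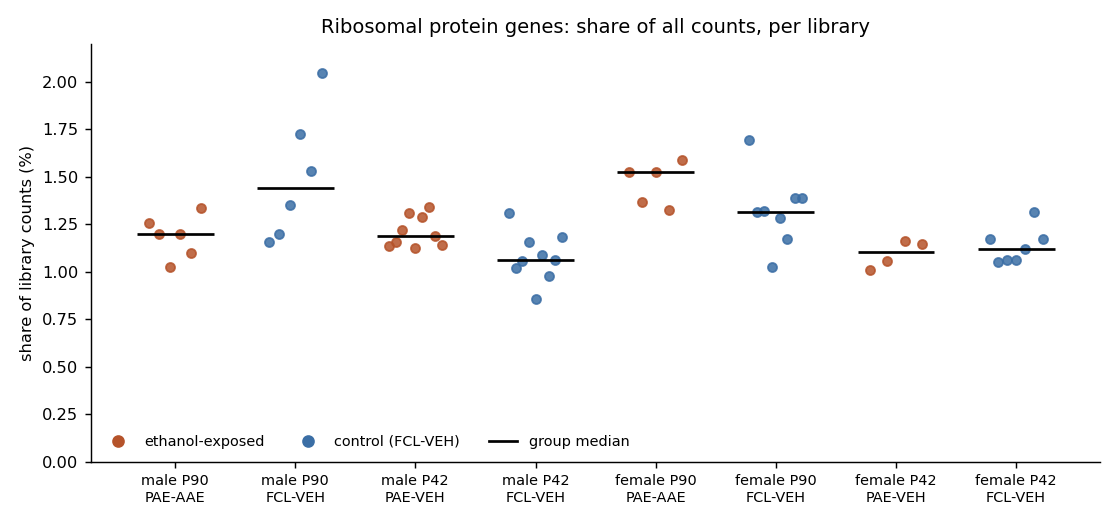
Share of each library's counts taken by the members (vertical axis, percent) in the 8 groups (horizontal axis). Each point is a library and black bars are group medians; P90 control males spread from 1.16% to 2.05%, and P90 PAE-AAE males from 1.03% to 1.33%.

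The comparison of P90 with P42 in control males asked how the family changes between adolescence and adulthood without ethanol. Of 74 members, 52 rose and 0 fell (edgeR, adjusted p under 0.05), while 1.93% of all 24065 genes tested rose and 2.53% passed in either direction. The fold change was positive for all 74, from 0.21 to 0.78 with a median of 0.52 on the log2 scale, and the median over all genes was -0.00. Among the large subunit genes 31 of 46 rose, and among the small subunit genes 21 of 28, with median log2 changes of 0.49 and 0.55. In bulk tissue, more cells rich in these mRNAs and more of the mRNAs per cell cannot be told apart.

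The members with the smallest adjusted p came from both subunits, and 7 of them are given here. Rps24, a small subunit protein mutated in Diamond-Blackfan anaemia in humans, had 105.1, 141 and 217 CPM in P90 control males (lowest, median, highest), against 73.6, 102.8 and 120.2 CPM in P42 control males. The ranges overlapped, and the median of the P90 libraries lay above the highest P42 library. The fold change was 0.60 ± 0.12 (log2, SE; edgeR adjusted p = 0.0083). Rpl26, a large subunit protein near the tunnel exit, had 202, 273 and 469 CPM in P90 control males, against 124, 186.8 and 233 CPM in P42 control males. It showed the largest change of the 7, 0.71 ± 0.15, with an adjusted p of 0.011. Rpl5 had 233, 289 and 443 CPM in P90 control males, against 171, 205 and 259 CPM in P42 control males, and changed by 0.53 ± 0.12. For all 7 genes the lowest P90 library lay below the highest P42 library.

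The other 4 were Rpl34 (0.57 ± 0.12), Rpl14 (0.52 ± 0.12), Rps25 (0.56 ± 0.13), a small subunit protein used by some viral internal ribosome entry sites, and Rpl23 (0.57 ± 0.13), which can bind Mdm2. Their adjusted p ran from 0.013 for Rpl34 to 0.017 for Rpl23. Rpl34 averaged 124 ± 37.7 CPM in P90 control males (SD, n = 6) and 83.6 ± 10.2 CPM in P42 control males (n = 9). Rpl23 averaged 150 ± 48.1 CPM in P90 control males and 100.4 ± 13.8 CPM in P42 control males. In each, the SD of the P90 libraries was larger than that of the P42 libraries.

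Of the stalk genes, Rplp1 rose by 0.59 ± 0.15 (adjusted p = 0.031) and Rplp0 by 0.38 ± 0.11 (adjusted p = 0.049), and Rplp2 had a log2 change of 0.39 ± 0.11 and did not pass (adjusted p = 0.051). Rplp1 stood at 258, 374 and 577 CPM in P90 control males, against 184, 251 and 337 CPM in P42 control males. Rplp0 stood at 279, 363 and 495 CPM in P90 control males, against 244, 273 and 355 CPM in P42 control males. In both, the upper part of the P90 range lay above every P42 library. These calls were less stable than those of the 7 genes above: with each library left out in turn, Rplp1 passed in 7 of 15 fits and Rplp0 in 3 of 15, and Rplp2 passed in 5 of 15. The 22 members that did not pass had changes of the same sign. Rps27a, which had the largest log2 change of the family, 0.78 ± 0.28, was among them (adjusted p = 0.14), and so was Rpl35a, with 0.54 ± 0.31 (adjusted p = 0.36). Rpl29, 0.24, and Rpl7a, 0.21, had the smallest changes.

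**Figure D3:**
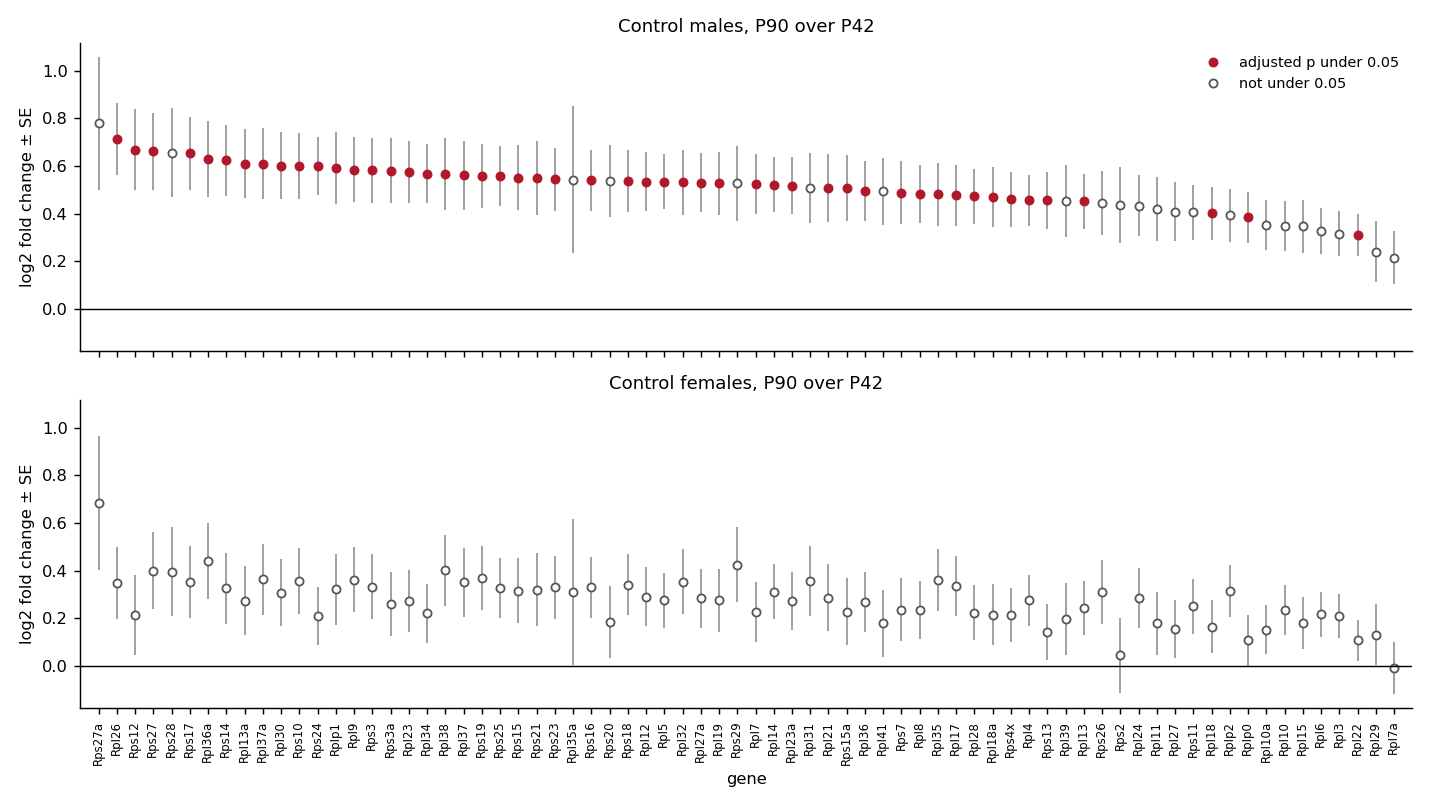
Log2 fold change ± SE (vertical axis) of 72 of the 74 members (horizontal axis, ordered by the change in males) for P90 over P42 controls, males above and females below. Filled points have an adjusted p under 0.05: 50 of the 72 in males and 0 in females; in males all 72 lie above 0.

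The count of 52 rested on a few libraries. With each of the 15 control male libraries left out in turn, between 0 and 71 members passed, and the median log2 change ran from 0.39 to 0.61. Without P90 control male 6 the count was 0, and without P90 control male 4 it was 2. Without P90 control male 5 it was 29, and without P42 control males 2, 3, 5, 7 and 8 it was 32, 28, 30, 25 and 34. Without both P90 control males 4 and 6, a setting added after the values had been seen, 0 members passed, all 74 changes remained positive, and their median was 0.26. When P42 control male 8 and P42 control female 5, the control libraries with sex markers opposite to their label, were dropped, the count was 26 and the median 0.54.

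P90 control male 6 held the highest family share of all libraries, 2.05%, and P90 control male 4 the next highest of its group, 1.73%. In these 2 libraries other measures were high as well. A list score is the mean log2 CPM of the list's genes, centred per gene over the 54 libraries. The score of 387 short protein-coding genes outside the family, no longer than the family's median gene length of 878.5 bases and with a mean of at least 1 CPM, was 0.43 in P90 control male 6 and 0.27 in P90 control male 4. That of nuclear-encoded oxidative phosphorylation subunits was 0.54 and 0.305. The choroid plexus score was 3.13 and 2.35, with summed choroid plexus markers from 74.3 to 3871 CPM in P90 control males, against 22.8 to 1894 CPM in P42 control males. P42 control male 5 had a choroid plexus score of 3.12 and the lowest family share of all libraries, 0.857%. With scores for choroid plexus, ependymal cilia and cortical excitatory neurons as covariates, 0 members passed, all 74 were positive, and the median was 0.37. With the short gene score as a covariate, 0 members passed, 71 of 74 were positive, and the median was 0.12.

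**Figure D4:**
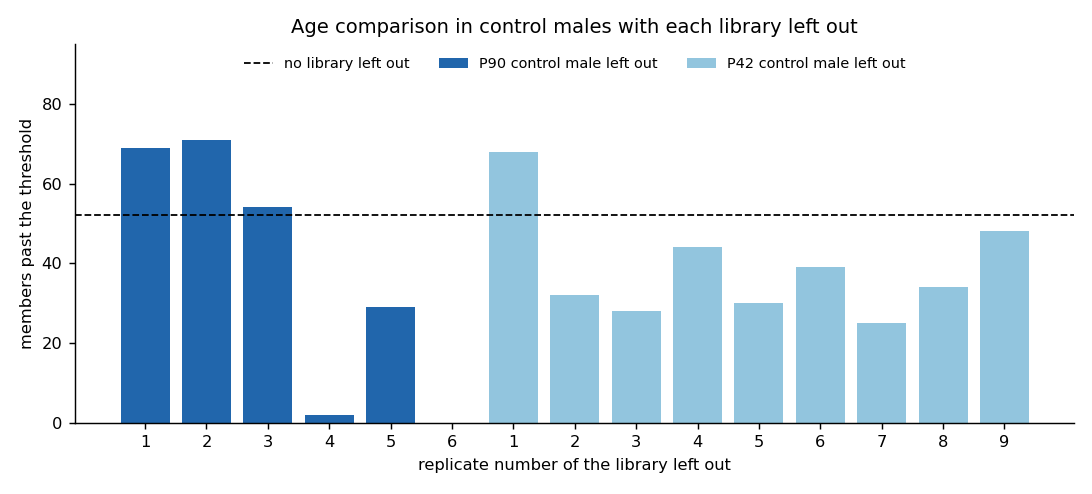
Number of the 74 members past the threshold in the age comparison of control males (vertical axis) when the library with the given replicate number (horizontal axis) is left out; dark bars leave out P90 and light bars P42 libraries. The dashed line marks the 52 found with all libraries; the bars reach 71 without P90 control male 2 and 0 without P90 control male 6.

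In control females, the same age comparison gave 0 of 74 members by edgeR and 0 by DESeq2, with 0.42% of all genes passing in either direction. At an unadjusted p under 0.05 there were 46 members by edgeR and 3679 of all 24065 genes, and 73 of 74 changes were positive, with a median of 0.28. With the neighbouring tissue scores or the long noncoding RNA share as covariates, 0 members had an unadjusted p under 0.05, and the median was 0.06 and 0.07. The short gene score as a covariate left 46 such members, with 72 of 74 changes positive and a median of 0.16. Fitting all 54 libraries together gave 55 such members. Dropping the control libraries with sex markers opposite to their label gave 29. The result in females therefore depended on which covariate was used. The 3 members with the smallest p were Rplp2 (0.32 ± 0.11, adjusted p = 0.19), Rpl35 (0.36 ± 0.13, adjusted p = 0.21) and the X-linked Rpl36a (0.44 ± 0.16, adjusted p = 0.21). Rplp2 had 70.4, 87.7 and 107.3 CPM in P90 control females, against 62.8, 71.6 and 82.7 CPM in P42 control females. Rplp1 had a change of 0.32 ± 0.15 and Rplp0 one of 0.11 ± 0.11, and neither passed. In 7 of 8 P90 control females more than 37 of the 74 members lay above the median of P42 control females; in P90 control female 4 the number was 0.

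The age changes of the sexes were compared directly. The female minus male difference was negative for all 74 members, with a median of -0.24. None passed by edgeR or DESeq2, as 0% of all genes did, and 1 member, Rps24 (-0.39 ± 0.17), had an unadjusted p under 0.05, with 2045 of all genes. The next smallest p belonged to Rpl34 (-0.35 ± 0.18) and Rps12 (-0.45 ± 0.24). The adjusted p of the 74 members ran from 0.55 to 0.97. Without P90 control males 4 and 6, the median difference was 0.02, and with the short gene score as a covariate it was 0.04. With the long noncoding RNA share as a covariate it was -0.29, with 52 members at an unadjusted p under 0.05. With the neighbouring tissue scores it was -0.33, with 27 members. For the stalk genes the differences were -0.28 ± 0.15 for Rplp0, -0.27 ± 0.21 for Rplp1 and -0.08 ± 0.16 for Rplp2.

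At P42, PAE-VEH males were compared with control males for the effect of prenatal ethanol in adolescence. No member passed by edgeR or DESeq2 (0% of 24741 genes by edgeR), with 56 of 74 members and 2217 of all genes at an unadjusted p under 0.05. The changes were positive for 73 members, with a median of 0.19, against 0.01 over all genes. With the short gene score as a covariate the median was 0.06 and 7 members had an unadjusted p under 0.05. With the long noncoding RNA share it was 0.12 with 27 members, and with all 54 libraries in 1 fit 0.18 with 20 members. The neighbouring tissue scores as covariates left it at 0.19 with 50 members. Dropping the P42 libraries with contrary sex markers also left it at 0.19, with 53 members. Rps12, a small subunit protein, had 78.8, 84.3 and 100.05 CPM in PAE-VEH males, against 56.7, 71.2 and 87.9 CPM in control males, a log2 change of 0.28 ± 0.08 (adjusted p = 0.30). Rps4x, whose gene is on the X chromosome, changed by 0.24 ± 0.07 (adjusted p = 0.31), and Rplp0 by 0.24 ± 0.07 (adjusted p = 0.35). Rplp1 and Rplp2 had changes of 0.19 ± 0.09 and 0.18 ± 0.07. Rpl35a was the only member below 0 in this comparison, at -0.32 ± 0.39. All 9 PAE-VEH males had at least 51 of 74 members above the median of control males. Other lists were higher in PAE-VEH males as well, without a gene that passed: astrocyte markers had 10 of 10 changes positive with a median of 0.18, 5 of them at an unadjusted p under 0.05, oxidative phosphorylation subunits had 57 of 57 positive with a median of 0.13, and the 387 short genes had 334 positive with a median of 0.13. Their part in the family's changes was not tested.

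In P42 females the changes lay around 0. With 4 PAE-VEH and 7 control libraries, 32 members were positive and 42 negative, and the median was -0.01. None passed by either tool (0% of all 24741 genes by edgeR), and 0 members had an unadjusted p under 0.05. The 3 members with the smallest p were Rpl30 (-0.28 ± 0.17), Rps28 (-0.24 ± 0.15) and Rpl10a (-0.13 ± 0.10), with adjusted p between 0.54 and 0.63. Rpl30 had 86.03, 44.4, 97.1 and 94.8 CPM in the 4 PAE-VEH females, against 79.4 to 109.9 CPM and a median of 99.8 CPM in control females; PAE-VEH female 2 stood below all others. Rps28 had 26.8, 24.9, 27.0 and 18.9 CPM in PAE-VEH females, against 24.1 to 33.6 CPM in control females. The stalk genes Rplp0 (-0.02), Rplp1 (0.10) and Rplp2 (0.05) did not pass.

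The mean change over the sexes at P42 had a median of 0.09, with 72 members positive, 7 at an unadjusted p under 0.05 (2698 of all 24741 genes) and 0 that passed by edgeR or DESeq2 (0% of all genes). Rpl13 (0.13 ± 0.05), Rpl38 (0.20 ± 0.09), which in mice is needed for translation of Hox mRNAs, and Rpl6 (0.11 ± 0.05) had the smallest p, with adjusted p between 0.39 and 0.42. The female minus male difference was negative for all 74 members, with a median of -0.19. None passed by edgeR or DESeq2, with 15 members and 2617 of all 24741 genes at an unadjusted p under 0.05, among the members Rps28 (-0.53 ± 0.19) and Rps24 (-0.34 ± 0.12); the smallest adjusted p was 0.34.

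At P90, all 74 members were lower in PAE-AAE males than in control males, yet none passed. The log2 changes ran from -0.97 to -0.22 with a median of -0.39, against 0.01 over all genes. By edgeR 0 of 74 members and 0% of 24018 genes passed, and DESeq2 gave 0 members as well. At an unadjusted p under 0.05 there were 70 members, and 2100 of all genes. Rpl26 had 173, 211 and 227 CPM in PAE-AAE males, against 202, 273 and 469 CPM in control males, a change of -0.57 ± 0.17. Rps24 had 95.3, 115.04 and 121 CPM in PAE-AAE males, against 105.1, 141 and 217 CPM in control males, a change of -0.45 ± 0.14. Rpl36a had 35.4, 42.4 and 49.1 CPM in PAE-AAE males, against 42.4, 58.8 and 96.4 CPM in control males, a change of -0.59 ± 0.18. The adjusted p of all 3 was 0.55. In each, the ranges overlapped and the wider spread was in the control males.

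Each of the 6 PAE-AAE males had at most 2 of 74 members above the median of P90 control males. The stalk genes changed by -0.36 ± 0.12 (Rplp0), -0.43 ± 0.17 (Rplp1) and -0.26 ± 0.12 (Rplp2). The member at -0.97 was Rpl35a, with an SE of 0.39 and 7.225, 16.7 and 34.9 CPM in PAE-AAE males, against 10.2, 33.2 and 69.01 CPM in control males. These control males are also the P90 libraries of the age comparison, so the changes of opposite sign share their libraries. Without P90 control males 4 and 6 the median was -0.14, all 74 members remained negative, and 0 had an unadjusted p under 0.05.

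In P90 females, 72 of 74 members were higher in PAE-AAE than in control libraries, with a median of 0.18. None passed by edgeR or DESeq2 (0% of all genes), and 0 had an unadjusted p under 0.05. The smallest p belonged to Rpl29 (0.28 ± 0.14), Rpl7a (0.21 ± 0.11) and Rplp0 (0.22 ± 0.12), with an adjusted p of 0.9998 each. Rplp0 had 371, 326, 417, 335 and 379.6 CPM in the 5 PAE-AAE females, against 259 to 389 CPM and a median of 311 CPM in control females. All 5 lay above that median, and the ranges overlapped. Rpl29 had 227, 139, 210.1, 162 and 212 CPM in PAE-AAE females, against 122 to 196 CPM in control females, and here PAE-AAE females 2 and 4 lay within the range of the controls. Rplp1 and Rplp2 had changes of 0.21 ± 0.17 and 0.17 ± 0.12.

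At P90 the medians of the exposure change had opposite signs in females and males. The female minus male difference was positive for all 74 members, from 0.38 to 1.22 with a median of 0.57, and 72 had an unadjusted p under 0.05, with 2544 of all 24018 genes. By edgeR 0 of 74 members and 0% of all genes passed, and by DESeq2 0 members. Rplp0 (0.58 ± 0.17), Rpl13a (0.79 ± 0.23) and Rps3 (0.70 ± 0.21), a protein of the mRNA entry channel, led by p (adjusted p = 0.42 for all 3). Rplp1 (0.64 ± 0.24) and Rplp2 (0.43 ± 0.17) had the same adjusted p. Without P90 control males 4 and 6 the median was 0.32. For the mean over the sexes, 0 members passed while 0.00416% of all genes did, and the median was -0.11, with 1 member and 784 of all genes at an unadjusted p under 0.05 and 0 members past the threshold by DESeq2. The sign of this median turned without P90 control males 4 and 6, where it was 0.01 with 48 of 74 members positive, and with the short gene score as a covariate, where it was 0.0056 with 41 positive. Rpl36a (-0.28 ± 0.12), Rps27 (-0.21 ± 0.12) and Rpl26 (-0.20 ± 0.12) had the smallest p.

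**Figure D5:**
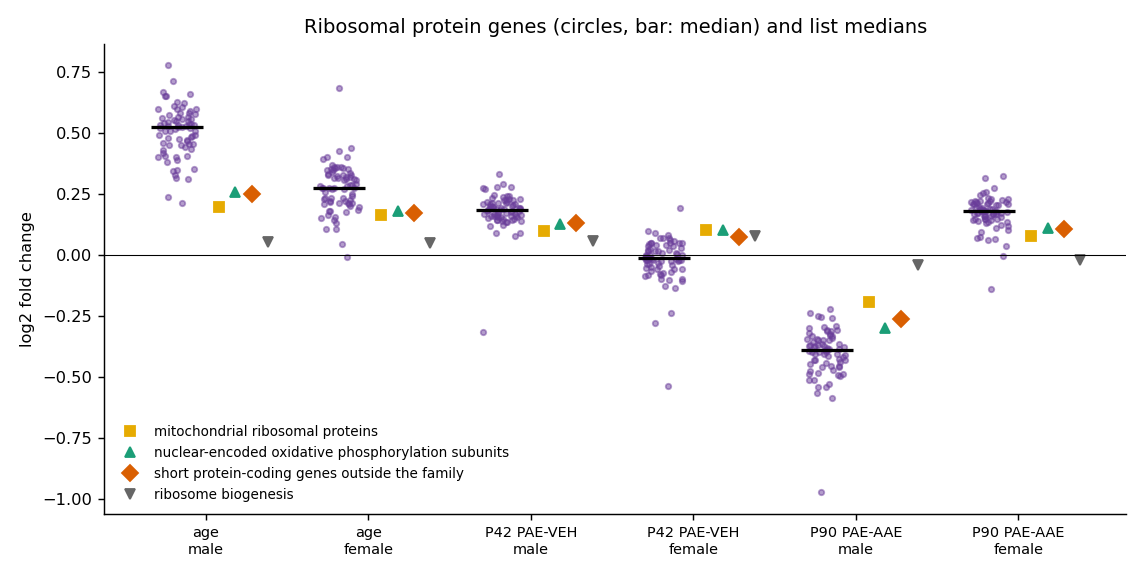
Log2 fold changes (vertical axis) of the 74 members (circles, bar at the median) in 6 comparisons (horizontal axis), with the medians of 4 other gene lists to the right. The family's medians are 0.52, 0.28, 0.19, -0.01, -0.39 and 0.18; the short gene, oxidative phosphorylation and mitochondrial ribosome medians lie on the same side of 0 as the family's in all but P42 females.

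Control females and males of the same age were compared as well. At P42 the female over male changes had a median of 0.04. No member passed (0% of all genes), and 0 had an unadjusted p under 0.05. Rps13 (0.14 ± 0.11), Rps24 (0.12 ± 0.12) and Rpl7 (0.10 ± 0.12) had the smallest p. With the long noncoding RNA share as a covariate the P42 median was 0.22, with 64 members at an unadjusted p under 0.05. With the neighbouring tissue scores it was 0.17 with 7 members, and with the short gene score -0.03 with 0 members. At P90 all 74 were lower in females, with a median of -0.19, and 0 passed, while 0.0499% of all genes did and 0.0332% were lower. At an unadjusted p under 0.05 there were 3 members, with 1409 of all 24065 genes: Rps24 (-0.27 ± 0.13), Rpl22 (-0.19 ± 0.09) and Rps2 (-0.34 ± 0.16). DESeq2 also gave 0 members at both ages. The X-linked members had changes of 0.04 (Rpl10), -0.00 (Rpl36a), 0.05 (Rpl39) and 0.09 (Rps4x) at P42, and of -0.07, -0.19, -0.20 and -0.16 at P90. Without P90 control males 4 and 6, the P90 median was 0.04.

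The rest of the translation machinery was described from lists, in control males first, where 1.93% of all genes rose with age. Of 13 relatives outside the naming rule, such as genes that fuse a ribosomal protein to a ubiquitin-like one, 2 rose with age, Fau (0.54 ± 0.14), which encodes Rps30, and Rpsa (0.47 ± 0.12), with a list median of 0.31. Of 17 elongation factors and other mRNAs with a terminal oligopyrimidine tract, 4 rose: Eif3k (0.30), Btf3 (0.34), Eef1a1 (0.37), which brings aminoacyl-tRNA to the ribosome, and Tpt1 (0.47). The median was 0.25. Of 29 initiation factors, 2 rose, Eif1 (0.26), which acts in start codon selection, and Eif6 (0.32), which keeps the subunits apart, with a median of 0.12. None of 32 ribosome biogenesis genes passed (median 0.06) and none of 22 growth control genes, among them Mtor, Larp1, Myc and Gabpa (median -0.04).

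Lists outside cytosolic translation were set beside these in the same comparison, again against 1.93% of all genes that rose and 0.603% that fell. Mitochondrial ribosomal proteins, which serve the ribosome of mitochondria, had 2 of 75 that rose, a share near that of all genes: Mrps18b (0.33) and Mrpl52 (0.39). Their median was 0.20. Among the 57 nuclear-encoded oxidative phosphorylation subunits 0 passed, all were positive, and the median was 0.26. Of the 387 short genes 27 rose and 0 fell, with a median of 0.25. Of the cell type lists, microglia had 3 of 10 that rose (C1qa, C1qb and C1qc, the complement C1q chains, 0.72 to 0.74), astrocytes 2 of 10 (S100b, 0.61; Aldoc, 0.53), and oligodendrocyte precursors 1 of 8 that fell (Gpr17, -0.81). No gene of the choroid plexus list passed, with a median of 1.14. The part of these cell types in the family's changes was not tested.

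In the 2 P90 exposure comparisons no gene of any of these lists passed, and 0% of all 24018 genes did in each. In males the PAE-AAE over control medians were -0.19 for mitochondrial ribosomal proteins, -0.30 for oxidative phosphorylation, -0.26 for the short genes, -0.21 for the elongation factor list, -0.04 for biogenesis and -0.81 for choroid plexus. In females they were 0.08, 0.11, 0.11, 0.13, -0.02 and 1.11 in the same order. The share of counts on long noncoding RNA rows ran the other way from the family share in P90 males, with medians of 1.16% in PAE-AAE and 0.988% in control libraries; in P90 females it was 0.962% in PAE-AAE and 1.08% in control libraries. With the short gene score as a covariate, the P90 median was -0.03 in males and 0.04 in females.

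The start sequences and the age change were set side by side for the 59 members that had both. The 24 members whose annotated start is a C followed by a C or T run of at least 5 bases in all had log2 changes from 0.31 to 0.66 with a median of 0.52 in control males. The other 35 had changes from 0.21 to 0.78 with a median of 0.53.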

How the data were processed

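The authors deposited 1 table with raw read counts per gene and FPKM for 54 libraries; per the file headers the 2 kinds stand in separate columns. Per the submitters' processing notes, fastp and HISAT2 2.0.5 were used; neither counter nor genome build is given in the sources used here. Gene positions equalled RefSeq GRCr8 for all 76 members. Counts were tested with edgeR 4.0.16 in R 4.3.3 (TMM, filterByExpr, quasi-likelihood F test, two-sided, Benjamini-Hochberg over all genes, threshold 0.05) in 3 fits: controls (30 libraries, 24065 genes), P42 (29, 24741) and P90 (25, 24018), giving 13 comparisons. CPM are scaled by TMM; deposited FPKM served only for levels between genes.

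The 720 rows without a name (0.271% to 0.412% of counts) were left out. The labels give 1 batch date and do not say that libraries are separate animals, so p-values measure only the spread between libraries; reads carry no molecular identifiers, so depth covers counting error only. Members and lists were chosen with earlier results of these data known. Named were, per comparison, up to 8 members per direction with the smallest adjusted p or else the 3 with the smallest p; the stalk genes and Rps6; the 5 highest and 5 lowest by FPKM; the 3 most and 3 least correlated; X-linked members by sex; and up to 3 called genes per other list (Tpt1 was added after its value was seen); 2 members are counted but not reported here by name. On simulated counts of 23027 genes for the male age comparison, 80% of 100 genes changed by 0.5 (log2) were recovered with 8 false calls; their dispersion of 0.02 lies below that of the data (biological coefficient of variation 35.4% over all genes), so real recovery may be lower. Alternatives were RLE factors, TMM without the family, no filter, DESeq2 1.42.0, all libraries in 1 fit, covariates, and libraries left out.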

Additional observations from a re-analysis of the deposited data

Results flagged for a closer look

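By Dixon's ratio, 3 sets of values (a measure in a group) had a library apart from its group, which is 2.68% of the sets examined, while chance flags about 1 in 20. Rpl7a stood at 119.3 CPM in P90 PAE-AAE female 4, below the other 4 libraries of that group (139.5 to 147 CPM). Rps3 stood at 414 CPM and Rpl26 at 368 CPM in P90 control female 1, against 305 CPM and 261 CPM in the next highest libraries. P90 control female 1 also had the highest family share of its group, 1.70%, and the lowest share of long noncoding RNA counts, 0.67%; the part of these in the values was not tested.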

How the results depend on the processing

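For 12 of the 13 comparisons, the count of members past the threshold was 0 in every setting, except that the short gene score as a covariate gave 1, Rpl14, in the age comparison of females. In control males it was 52, against 50 with RLE factors, 52 with TMM computed without the family, 39 with no filter on low counts, 59 with the long noncoding RNA share as a covariate, and 68 with DESeq2 or with all 54 libraries in 1 fit. It was 26 when P42 control male 8 and P42 control female 5, with sex markers opposite to their label, were dropped. It was 0 with the neighbouring tissue scores or the short gene score as covariates. Without P90 control males 4 and 6 (added after seeing the data) it was also 0. With each library left out in turn it ran from 0 to 71. No named member reversed its sign with a call in any setting. Of 7 leading genes, Rps24 passed in 14 of 15 fits with a library left out, and the other 6 in 13; of the stalk genes, Rplp1 passed in 7 of them and Rplp0 in 3.

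Medians moved by more than the within-group SD of the family score in 4 kinds of setting. With the short gene score as a covariate they were 0.12 for age in males, 0.0353 for the female minus male difference with age, -0.0327 for that difference at P42, -0.0285 for P90 exposure in males and 0.0676 for the P90 difference. With the long noncoding RNA share as a covariate they were 0.0746 for age in females, 0.22 for sex at P42 and 0.20 for the P90 difference. With the neighbouring tissue scores they were 0.0563 for age in females and 0.28 for the P90 difference. Without P90 control males 4 and 6 they were 0.0163 for the difference with age and 0.32 for the P90 difference. The causes were not tested. No paired analysis was possible because replicate numbers follow the order of deposition and the labels give no litter.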
